A study of Mus musculus with 5 samples.

Results

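The genes described here are interferon-stimulated genes, the set of antiviral, sensing and signalling genes that cells switch on in response to interferon. 39 genes were listed by symbol, and 37 of them were matched to a probe and tested, out of 17583 genes tested in all. Mx1 and Mx2 were not analysed here. The arrays compared mouse gastric organoids, which are epithelial cell clusters grown in culture from stomach tissue, all labelled female. The control, 1 array, was an organoid line from Trp53flox/flox mice carrying the vector pLKO.1 with shLuc, a luciferase hairpin, taken before inoculation under the skin. The other 4 arrays were organoids recovered from subcutaneous tumours, all with Trp53 loss. 2 of them carried a hairpin against Cdh1 (shCdh1 #1 and shCdh1 #2), 1 carried Apc580D and 1 carried Pik3caH1047R, and these are called shCdh1, Apc and Pik3ca below. All cultures were kept in serum-free medium with the same growth factors, and no interferon treatment was named. The label of the control names no Trp53 loss. A contrast with the control therefore mixes Trp53 loss with the other lesion and with passage through a tumour. The labels do not say whether the hairpin arrays came from separate cultures or animals, so p-values measure only the spread between these samples, which may be technical. In the comparison of the 4 tumours with the control, that spread also holds the differences between tumour genotypes and between slides. In organoid RNA, fewer cells of a type and less RNA per cell cannot be told apart.

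Interferons are secreted proteins that act on cell-surface receptors. Type I and type III interferons signal through Jak1 and Tyk2 to a complex that holds Stat2 and Irf9 and binds a DNA element called the interferon-stimulated response element, while interferon gamma acts at gamma-activated sequences. Sensors of foreign or misplaced nucleic acid, such as the RNA helicases Ifih1 and Ddx58, act upstream by inducing the interferons, and are themselves induced by them. Many of the effectors stop viral RNA from being translated or copied. In epithelium the same genes can be driven by interferon made by the epithelial cells or by neighbouring cells.

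Levels are log2 signal relative to the 75th percentile of each array, so they compare arrays for 1 gene and not 1 gene with another. The share of spots well above background ranged from 61.8% to 65.3% over the arrays. The control and both shCdh1 arrays lay on 1 slide and Apc and Pik3ca on another, so in contrasts across them slide and group cannot be told apart. The comparisons of shCdh1 with the control and of Apc with Pik3ca stay within a slide. Cdh1, the E-cadherin gene, lay at 0.07 and 0.26 with shCdh1 and between 4.39 and 4.58 on the other arrays, and Trp53 lay at 0.85 in the control and between -5.86 and -4.86 in the tumours. The Apc and Pik3ca probes do not test those lesions. The Pik3ca array went against its label on sex, with Xist not well above background and 4 Y-linked genes detected only there. Its Eif2s3y level, for example, was 1.35. All 12 gastric epithelial markers were detected on at least 1 array, and their summed linear signal was 839 in the control and between 557 and 791 in the tumours, in units of the 75th percentile. The sum rests mostly on its brightest probes, those of Krt18, Krt8, Krt19 and Tff1, and does not show single markers. With Pik3ca, for example, Tff2 was 6.41-fold below the control and Epcam 2.83-fold above it.

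Of the 37 members, 29 had a promoter in a RefSeq table of assembly GRCm38.p6, in windows of 300 bases running from 250 bases before to 50 bases after the transcription start. The core of the response element, GAAANNGAAA on either strand, was found in 15 of these 29 members (51.7%), against 3.99% of 27025 genes in the table and 3.55% of the genes tested on the arrays. Overlapping matches were counted separately. The gamma-activated sequence TTCNNNGAA, read on both strands, was found in 6 of 29 (20.7%), namely Bst2, Eif2ak2, Ifi35, Ifit2, Irf1 and Oas1a, against 9.55% of the table. A match describes letters in the window and is not evidence of binding. 5 windows are printed to show the element beside genes with different patterns on the arrays. Isg15, Ifit1, Cxcl10 and, on the probe used, Rsad2 were at least 2-fold above the control on all 4 tumour arrays, and Ddx58 was below it on 3 of 4. The sequences run 5′ to 3′ on the strand of the gene, with the matches in capitals. TTTC at the start of a capital run marks a match on the opposite strand.
Isg15: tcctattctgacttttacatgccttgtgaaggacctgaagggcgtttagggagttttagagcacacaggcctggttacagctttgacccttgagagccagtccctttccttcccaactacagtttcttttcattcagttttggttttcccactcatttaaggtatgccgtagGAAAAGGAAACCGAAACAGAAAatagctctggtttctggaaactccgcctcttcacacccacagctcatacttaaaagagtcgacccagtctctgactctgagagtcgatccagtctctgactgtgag
Ifit1: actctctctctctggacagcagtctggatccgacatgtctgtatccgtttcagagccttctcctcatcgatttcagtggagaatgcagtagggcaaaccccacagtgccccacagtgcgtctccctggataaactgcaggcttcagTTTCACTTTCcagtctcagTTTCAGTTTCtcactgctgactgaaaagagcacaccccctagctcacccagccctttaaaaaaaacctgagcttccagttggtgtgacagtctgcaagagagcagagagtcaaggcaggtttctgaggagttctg
Cxcl10: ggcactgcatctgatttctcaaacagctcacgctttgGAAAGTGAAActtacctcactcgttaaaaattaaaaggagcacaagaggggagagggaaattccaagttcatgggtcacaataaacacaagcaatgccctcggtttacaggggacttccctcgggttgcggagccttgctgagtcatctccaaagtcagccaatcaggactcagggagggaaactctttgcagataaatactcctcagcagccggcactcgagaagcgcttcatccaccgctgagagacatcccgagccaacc
Rsad2: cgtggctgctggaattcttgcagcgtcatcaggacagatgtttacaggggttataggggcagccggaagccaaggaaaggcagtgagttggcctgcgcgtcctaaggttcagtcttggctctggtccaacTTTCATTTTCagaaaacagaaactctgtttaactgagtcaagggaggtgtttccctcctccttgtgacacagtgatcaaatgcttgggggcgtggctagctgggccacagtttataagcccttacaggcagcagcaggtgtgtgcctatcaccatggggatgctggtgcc
Ddx58: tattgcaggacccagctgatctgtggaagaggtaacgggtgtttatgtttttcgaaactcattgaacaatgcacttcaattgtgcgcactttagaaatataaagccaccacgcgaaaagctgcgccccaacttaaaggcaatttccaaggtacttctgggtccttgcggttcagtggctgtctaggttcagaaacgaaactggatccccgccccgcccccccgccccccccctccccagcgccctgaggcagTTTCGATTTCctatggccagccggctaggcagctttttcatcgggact
The Isg15 window (chr4:156200769-156201068, minus strand) held 3 overlapping matches, the nearest beginning 66 bases before the start. The Ifit1 window (chr19:34640639-34640938, plus strand) held 2, the nearest 85 bases before the start. The single matches of Cxcl10 (chr5:92348840-92349139, minus strand) and Rsad2 (chr12:26456403-26456702, minus strand) began 213 and 120 bases before it. In Ddx58 (chr4:40239776-40240075, minus strand) the single match lay just after the start.

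By median the members were higher in the tumour-derived organoids than in the control, most with Apc and least with shCdh1. 31 of 37 members (83.8%) were higher in the mean of the 4 tumour arrays, against 55.4% of all genes tested. The median difference was 0.79 on the log2 scale, against 0.06 over all genes. 18 members (48.6%) were at least 2-fold higher, against 9.88% of all genes, and 0 were at least 2-fold lower, against 6.98%. None of the 37 passed limma's test with Benjamini-Hochberg adjustment over all genes, which 0.119% of all genes passed, and 7 members (18.9%) had an unadjusted p below 0.05, all of them higher, against 13.3% of all genes, of which 1202 of 2345 were higher. The lowest adjusted p was 0.0988, for Cxcl10. The median was 0.54, with 11 members at least 2-fold higher, when the Apc array was left out, 0.29 with slide as a block, which is the value within the first slide, and 0.49 with another background correction (normexp).

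By array the size of the difference varied widely, and all of these comparisons share the single control array. With shCdh1 #1 the median over the members was 0.33 above the control, with shCdh1 #2 it was 0.45, with Pik3ca 1.00 and with Apc 1.88. Over all genes the same medians were 0.08, 0.09, 0.06 and -0.01. With Apc, 36 of 37 members (97.3%) were above the control, against 49.3% of all genes. 22 (59.5%) were at least 2-fold above it, against 11.3% of all genes, while 0 were at least 2-fold below it, against 6.49%. With Pik3ca, 31 (83.8%) were above the control, against 54.3% of all genes. 18 (48.6%) were at least 2-fold above it, against 12.1%, and 0 were at least 2-fold below it, against 10% of all genes. Each hairpin array had 10 members (27.0%) at least 2-fold higher, against 8.69% of all genes for shCdh1 #1 and 11% for shCdh1 #2, and 1 and 3 members at least 2-fold lower, against 8.64% and 8.34%. On these 2 arrays 23 and 25 members were above the control (62.2% and 67.6%), against 56.2% of all genes on each. In the mean of the hairpins 27 members (73.0%) were higher, against 56.6% of all genes, with a median of 0.29. There 10 (27.0%) were at least 2-fold higher, against 8.95% of all genes. Only Cmpk2 was at least 2-fold lower in that mean, against 7.51% of all genes.

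In limma's genotype fit no member passed for shCdh1, Apc or Pik3ca against the control, and neither did any other gene (0% of all genes in each). At an unadjusted p below 0.05 there were 6, 16 and 11 members in these comparisons, all higher (16.2%, 43.2% and 29.7%), against 9.74%, 9.02% and 11.5% of all genes. Its only residual degree of freedom comes from the hairpin pair. With normexp the medians for Apc and Pik3ca were 0.81 and 0.44, with 11 members at least 2-fold higher for Pik3ca and 3 for shCdh1. 5 members dim in the control (Gbp2, Gbp3, Herc6, Ifi44 and Oas3) entered these counts at their measured signal. With dim signals set to the detection floor of the array, 22 members with Apc and 16 with Pik3ca were at least 2-fold above the control. Over the 31 members well above background on all 5 arrays the medians were 1.19 for Apc, 0.76 for Pik3ca and 0.20 for shCdh1.

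**Figure D1:**
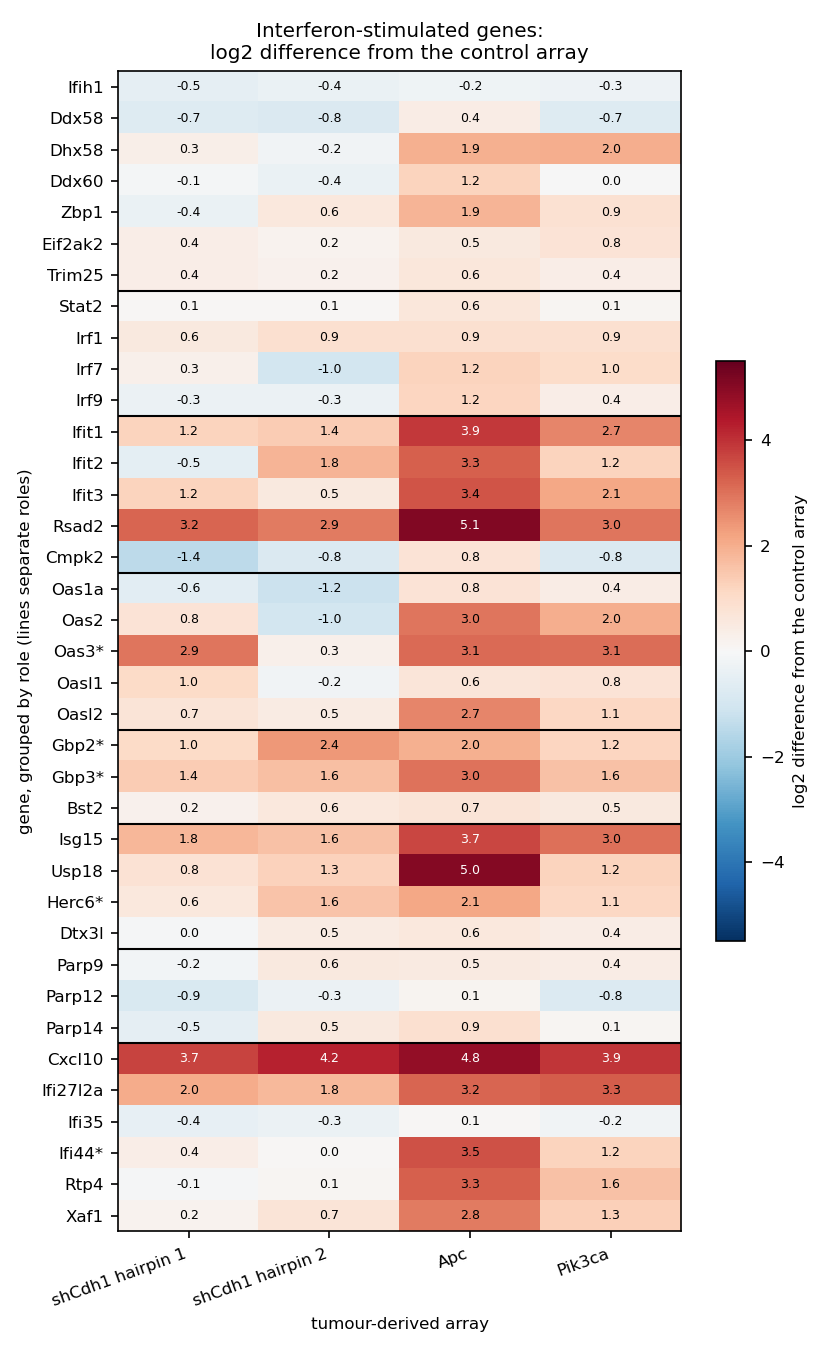
Log2 difference of each tumour-derived array (columns) from the control array for the 37 measured members (rows, grouped by role from sensors at the top to secreted and other genes at the bottom, with lines between roles); red is higher and blue lower than the control, and an asterisk marks a member not well above background in the control, whose difference is then taken from a control signal at background. The Apc column is above the control in 36 of 37 rows, against 49.3% of all genes. Cxcl10 is at least 13.3-fold above the control in all 4 columns.

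**Figure D2:**
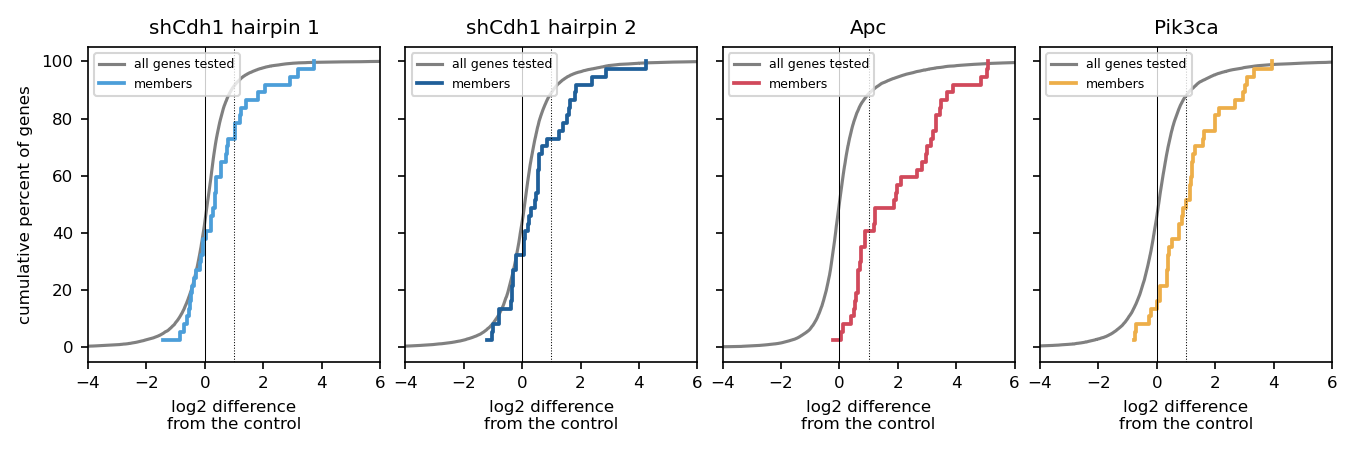
Cumulative percentage of genes (vertical axis) at or below each log2 difference from the control (horizontal axis) in 1 panel per tumour-derived array, for the 37 members (coloured) and all 17583 genes tested (grey); solid and dotted vertical lines mark no difference and a 2-fold difference. The median of the members lies at 0.33 and 0.45 for the hairpins, 1.88 for Apc and 1.00 for Pik3ca, while the grey curves are centred near 0.

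The rank of the arrays was as uneven. Apc was the highest of the 5 arrays for 29 of 37 members, against 14.5% of all genes, while Pik3ca was highest for 4, the hairpins for 1 and 2, and the control for 1, Ifih1. The control was below all 4 tumours for 19 members (51.4%), against 30.2% of all genes, and above all 4 for 1, against 24.4%. All 4 tumour arrays were at least 2-fold above the control for 7 members (18.9%), against 3.16% of all genes. These 7 were Ifit1, Rsad2, Isg15, Cxcl10, Ifi27l2a, Gbp2 and Gbp3, with Rsad2 among them on 1 of its probes only. Gbp2 and Gbp3 were not well above background in the control. Gbp2 with shCdh1 #1 (-5.12) was 2.06-fold above its control signal, but less than 2-fold above the lowest detected signal of the control array (-6.07). Apc was above Pik3ca and Pik3ca above both hairpins for 18 members (48.6%), against 6.91%, and Apc was at least 2-fold above every other array for 12 (32.4%), against 2.69%. The hairpin arrays differed from each other by at least 2-fold in 7 members (18.9%), against 13.2% of all genes.

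Of the interferon genes, Ifnb1, Ifng and Ifne were below the detection limit on most arrays, while some others were detected throughout. Of 10 ligand genes listed, Ifnl2 was not matched to a probe and Ifna4 was not well above background on any array. Ifnb1, the type I interferon most widely made by non-immune cells, was well above background only with Apc (-5.64) and Pik3ca (-5.77). Its Apc level was at least 1.34-fold above the control, a bound set by the dimmest signal counted as detected in the control. Ifng, the type II interferon made by lymphocytes, was well above background only with Apc (-5.34), at least 1.65-fold above the control. Ifne, an interferon of epithelial surfaces, was detected only with Pik3ca (-5.06), at least 2.01-fold above the control. Ifna1, Ifna5, Ifnk and Ifnl3 were detected on all 5 arrays and lay within 2-fold of the control on each. Ifna2 was detected on all arrays but shCdh1 #2, at -5.46 in the control and -5.02 to -4.37 on the other 3.

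Receptors and their kinases were much steadier. None of the 9 receptor and kinase genes (Ifnar1, Ifnar2, Ifngr1, Ifngr2, Ifnlr1, Il10rb, Jak1, Jak2 and Tyk2) lay 2-fold from the control on any tumour array. Ifnar1, a chain of the type I receptor, lay at 1.07 in the control and between 1.21 and 1.61 in the tumours. Tyk2 was below the control on all 4 tumour arrays, at 0.06 against -0.82 to -0.47, and 0 of the 9 passed limma's test. Of the adaptors, Sting1, which relays the sensing of cytosolic DNA, lay at -0.41 in the control, 0.76 and 0.95 with shCdh1, 2.89 with Apc and 3.46 with Pik3ca. Every tumour array was above the control, by 2.25-fold to 14.6-fold, and the mean difference was 2.43 ± 1.20 (SE; limma adjusted p = 0.462). Ticam1, the adaptor of the RNA receptor Tlr3, went the other way, at 1.02 in the control and -0.11 to 0.07 in the tumours. Mavs, Tbk1 and Irf3, which carry the RNA sensor signal, were within 2-fold of the control on every array.

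The sensors among the members were mixed. Their median difference from the control was -0.12 and -0.20 with shCdh1 #1 and #2, 0.63 with Apc and 0.36 with Pik3ca. Ifih1, the sensor of long double-stranded RNA, lay at -0.46 in the control, -0.94 and -0.83 with shCdh1, -0.68 with Apc and -0.75 with Pik3ca. It was the only member with the control above every tumour array, and no array was 2-fold away. Ddx58, which encodes RIG-I and reads uncapped RNA ends, lay at 1.78 in the control, 1.08 and 0.98 with shCdh1, 2.19 with Apc and 1.07 with Pik3ca. Only Apc was above the control. Another of the 4 Ddx58 probes gave a mean tumour difference of 0.01, with 0.86 for Apc, -0.19 for Pik3ca and -0.31 for shCdh1. Dhx58, a helicase that tunes both of these sensors, lay at -4.27 in the control, -3.94 and -4.48 with shCdh1, -2.34 with Apc and -2.30 with Pik3ca. Apc and Pik3ca stood apart here, at 3.83-fold and 3.94-fold of the control, while the hairpins were on either side of it.

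Ddx60, a helicase linked to RIG-I signalling, lay at -4.23 in the control, -4.35 and -4.60 with shCdh1, -3.01 with Apc and -4.23 with Pik3ca. On this probe Apc alone was higher, by 2.33-fold. The other probe, also above background on all 5 arrays, gave 0.62 for Apc, -0.67 for Pik3ca and -0.70 for shCdh1. Whether Apc reached 2-fold therefore depends on the probe. The mean tumour difference of Ddx60, 0.18, was -0.090 when both probes were averaged, so its direction depends on the probe too. Zbp1, a sensor of Z-form nucleic acid that can trigger cell death, lay at -3.74 in the control, -4.12 and -3.15 with shCdh1, -1.86 with Apc and -2.88 with Pik3ca, and Apc was 3.69-fold above the control. Eif2ak2, the kinase PKR that halts translation on binding double-stranded RNA, lay at 1.34 in the control, 1.72 and 1.53 with shCdh1, 1.86 with Apc and 2.10 with Pik3ca. Trim25, a ubiquitin ligase of RIG-I, lay at 4.64 in the control, 5.02 and 4.88 with shCdh1, 5.26 with Apc and 5.0 with Pik3ca. Both had the control lowest, and both stayed within 2-fold.

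The transcription factors differed less from the control than the Ifit and synthetase genes did with Apc and Pik3ca. Their median difference was 0.17 and -0.14 with shCdh1 #1 and #2, 1.03 with Apc and 0.63 with Pik3ca. Stat2 lay at 0.87 in the control, 0.92 and 0.93 with shCdh1, 1.5 with Apc and 0.97 with Pik3ca. On this probe Apc stood above 4 arrays that lay close together. The other probe, also above background on all 5 arrays, put Apc more than 2-fold above the control. There the difference from the control was 0.57 for shCdh1 and -0.26 for Pik3ca. Whether the arrays other than Apc lay close together therefore depends on the probe. Irf9, the DNA-binding partner of Stat2, lay at 0.56 in the control, 0.25 and 0.22 with shCdh1, 1.75 with Apc and 0.92 with Pik3ca. The order ran from the hairpins through the control and Pik3ca to Apc. Irf7, which amplifies type I interferon, lay at 1.46 in the control, 1.74 and 0.44 with shCdh1, 2.68 with Apc and 2.46 with Pik3ca. The hairpins lay on opposite sides of the control, shCdh1 #2 2.02-fold below it. Irf1, a factor induced above all by interferon gamma, lay at 2.50 in the control, 3.06 and 3.36 with shCdh1, 3.37 with Apc and 3.39 with Pik3ca. Here the 4 tumour arrays lay close together and all above the control, with a mean difference of 0.79 ± 0.24 (SE; limma adjusted p = 0.302).

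The Ifit genes, Rsad2 and Cmpk2 had the largest median differences of the 8 roles with Apc (3.45) and Pik3ca (2.14). With shCdh1 #1 and #2 these were 1.21 and 1.41. Ifit1, whose product binds viral RNA that lacks host cap marks, lay at -4.60 in the control, -3.36 and -3.19 with shCdh1, -0.71 with Apc and -1.92 with Pik3ca. The tumours were 2.36-fold, 2.65-fold, 14.8-fold and 6.37-fold above the control, and the mean difference was 2.30 ± 1.09 (SE; limma adjusted p = 0.447). Ifit2 lay at -5.58 in the control, -6.12 (not well above background) and -3.73 with shCdh1, -2.28 with Apc and -4.36 with Pik3ca. The hairpins lay on either side of the control, and Apc was 9.89-fold above it. Ifit3 lay at -4.28 in the control, -3.07 and -3.73 with shCdh1, -0.83 with Apc and -2.14 with Pik3ca. All 4 tumours were above the control, Apc by 10.9-fold. Ifit3 has a near-identical neighbour, Ifit3b, whose probe lay at -5.90, -4.08, -5.71, -1.84 and -3.42 on the same arrays in the same order, and signal shared between the pair is possible.

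Rsad2, which encodes viperin, an enzyme that makes a chain-terminating nucleotide, lay at -5.72 in the control, -2.54 and -2.86 with shCdh1, -0.62 with Apc and -2.77 with Pik3ca. On this probe no tumour array came within 7-fold of the control, and the Apc level was 34.3-fold above it. The mean difference was 3.53 ± 0.94 (SE; limma adjusted p = 0.278). On the other probe of the gene, also above background on all 5 arrays, it was 1.39, with 0.48 for shCdh1, 3.30 for Apc and 1.31 for Pik3ca. The size of the Rsad2 differences, and whether both hairpins lay 2-fold above the control, therefore rest on the probe. Cmpk2, the mitochondrial nucleotide kinase encoded next to Rsad2, did not follow it. It lay at -3.20 in the control, -4.62 and -4.0 with shCdh1, -2.44 with Apc and -3.99 with Pik3ca. 3 tumour arrays were below the control, the lowest by 2.68-fold, and Apc was 1.69-fold above it.

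The oligoadenylate synthetases make the messenger that switches on RNase L, an enzyme that cuts viral and cellular RNA. Their median difference was 0.76 and -0.20 with shCdh1 #1 and #2, 2.67 with Apc and 1.12 with Pik3ca. Oas1a lay at 2.36 in the control, 1.76 and 1.16 with shCdh1, 3.11 with Apc and 2.75 with Pik3ca. Both hairpins were below the control and both other tumours above it. Oas2 lay at -4.10 in the control, -3.33 and -5.11 with shCdh1, -1.14 with Apc and -2.12 with Pik3ca. Apc and Pik3ca were 7.74-fold and 3.94-fold above the control, and shCdh1 #2 was 2.02-fold below it. Oas3 was not well above background in the control or with shCdh1 #2, and lay at -5.26 with shCdh1 #1, -5.05 with Apc and -5.09 with Pik3ca. Apc was at least 2.03-fold and Pik3ca at least 1.97-fold above the control.

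Oasl2 lay at -1.39 in the control, -0.66 and -0.93 with shCdh1, 1.29 with Apc and -0.26 with Pik3ca. Its order of arrays was that of Ifit1 apart from the hairpins, with Apc 6.37-fold above the control. Oasl1, which lacks synthetase activity and holds back Irf7 translation, lay at 4.43 in the control, 5.46 and 4.23 with shCdh1, 5.08 with Apc and 5.19 with Pik3ca. Here shCdh1 #1 was the highest array, 2.05-fold above the control, and shCdh1 #2 the lowest. Oas1a has close relatives in a gene cluster, and Oas1g, from the pathway list, lay at -3.44 in the control, -3.53 and -4.21 with shCdh1, -2.67 with Apc and -2.97 with Pik3ca. Apc and Pik3ca were again above the control, and both hairpins below it.

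Guanylate-binding proteins attack membranes around intracellular microbes, and tetherin holds budding virus at the cell surface. Gbp2 was not well above background in the control and lay at -5.12 and -3.78 with shCdh1, -4.19 with Apc and -5.0 with Pik3ca. With Parp9, it was 1 of 2 members in which shCdh1 #2 was the highest array, and the mean of the tumours was at least 2.92-fold above the control. Gbp3, also not well above background in the control, lay at -4.74 and -4.50 with shCdh1, -3.15 with Apc and -4.55 with Pik3ca, at least 3.56-fold above the control in the mean and at least 7.57-fold with Apc. Bst2, which encodes tetherin, was between 1.17-fold and 1.61-fold above the control on the tumour arrays.

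Isg15 is a ubiquitin-like protein that is attached to other proteins by a ligase, Herc6 in the mouse, and taken off by Usp18, which also shuts down the type I receptor. Isg15 lay at -1.06 in the control, 0.75 and 0.55 with shCdh1, 2.63 with Apc and 1.95 with Pik3ca. The tumours were 3.51-fold, 3.05-fold, 13.0-fold and 8.06-fold above the control, and the mean difference was 2.53 ± 0.89 (SE; limma adjusted p = 0.346). Usp18 lay at -4.51 in the control, -3.72 and -3.24 with shCdh1, 0.53 with Apc and -3.28 with Pik3ca. The other 3 tumours were 1.73-fold to 2.41-fold above the control, and Apc stood 32.9-fold above it. The size of the mean tumour difference of Usp18, 2.08 ± 1.74 (SE), therefore depends much on the Apc array. Over the alternatives run it ranged from 1.03 to 2.51. Herc6, not well above background in the control, lay at -5.42 and -4.44 with shCdh1, -3.87 with Apc and -4.86 with Pik3ca. Its Apc level was at least 4.36-fold above the control. Dtx3l, a ubiquitin ligase that works with Parp9, was within 1.49-fold of the control on every tumour array.

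The 3 PARP genes, whose products add ADP-ribose to proteins, stayed near the control on the probes used. There Parp9, Parp12 and Parp14 all lay within 2-fold of the control on every tumour array. Another Parp14 probe, above background on all 5 arrays, gave 1.38 for Apc, 0.60 for Pik3ca and 0.21 for shCdh1. Whether Parp14 stayed within 2-fold with Apc therefore depends on the probe. The values below are from the probes used. Parp12 was below the control on 3 of 4 tumour arrays, by up to 1.8-fold, and Parp14 was highest with Apc, at 1.82-fold of the control. The hairpins differed from each other by at least 2-fold in Parp14, at -0.81 and 0.22. Their median differences were -0.49, 0.54, 0.49 and 0.12 with shCdh1 #1, shCdh1 #2, Apc and Pik3ca.

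Cxcl10, a secreted chemokine that draws in activated T cells, had the largest mean difference from the control of the 37 members. It lay at -2.19 in the control, 1.54 and 2.06 with shCdh1, 2.64 with Apc and 1.74 with Pik3ca. The 4 tumour arrays were 13.3-fold, 19.0-fold, 28.4-fold and 15.2-fold above the control. The mean difference was 4.19 ± 0.46 (SE; limma adjusted p = 0.0988), and with normexp the adjusted p was 0.0371. Ifi27l2a, a small interferon-induced membrane protein, lay at -5.03 in the control, -2.99 and -3.23 with shCdh1, -1.84 with Apc and -1.70 with Pik3ca. Here Pik3ca was highest and all tumours were at least 3.49-fold above the control, with a mean difference of 2.59 ± 0.71 (SE; limma adjusted p = 0.281).

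Rtp4, Xaf1 and Ifi44 had wider gaps between Apc and the hairpin mean than Cxcl10 and Ifi27l2a. Rtp4, a chaperone of membrane receptors with antiviral activity, lay at -0.93 in the control, -0.98 and -0.82 with shCdh1, 2.37 with Apc and 0.68 with Pik3ca. The hairpins sat on either side of the control, while Apc was 9.90-fold and Pik3ca 3.05-fold above it. Xaf1, a binder of the apoptosis inhibitor Xiap, lay at -2.61 in the control, -2.40 and -1.91 with shCdh1, 0.23 with Apc and -1.31 with Pik3ca, and Apc was 7.15-fold above the control. Ifi44 was well above background only with Apc (-3.11) and Pik3ca (-5.39), with Apc at least 7.78-fold and Pik3ca at least 1.60-fold above the control. Ifi35, which is induced by both kinds of interferon, was within 1.36-fold of the control on every tumour array.

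**Figure D3:**
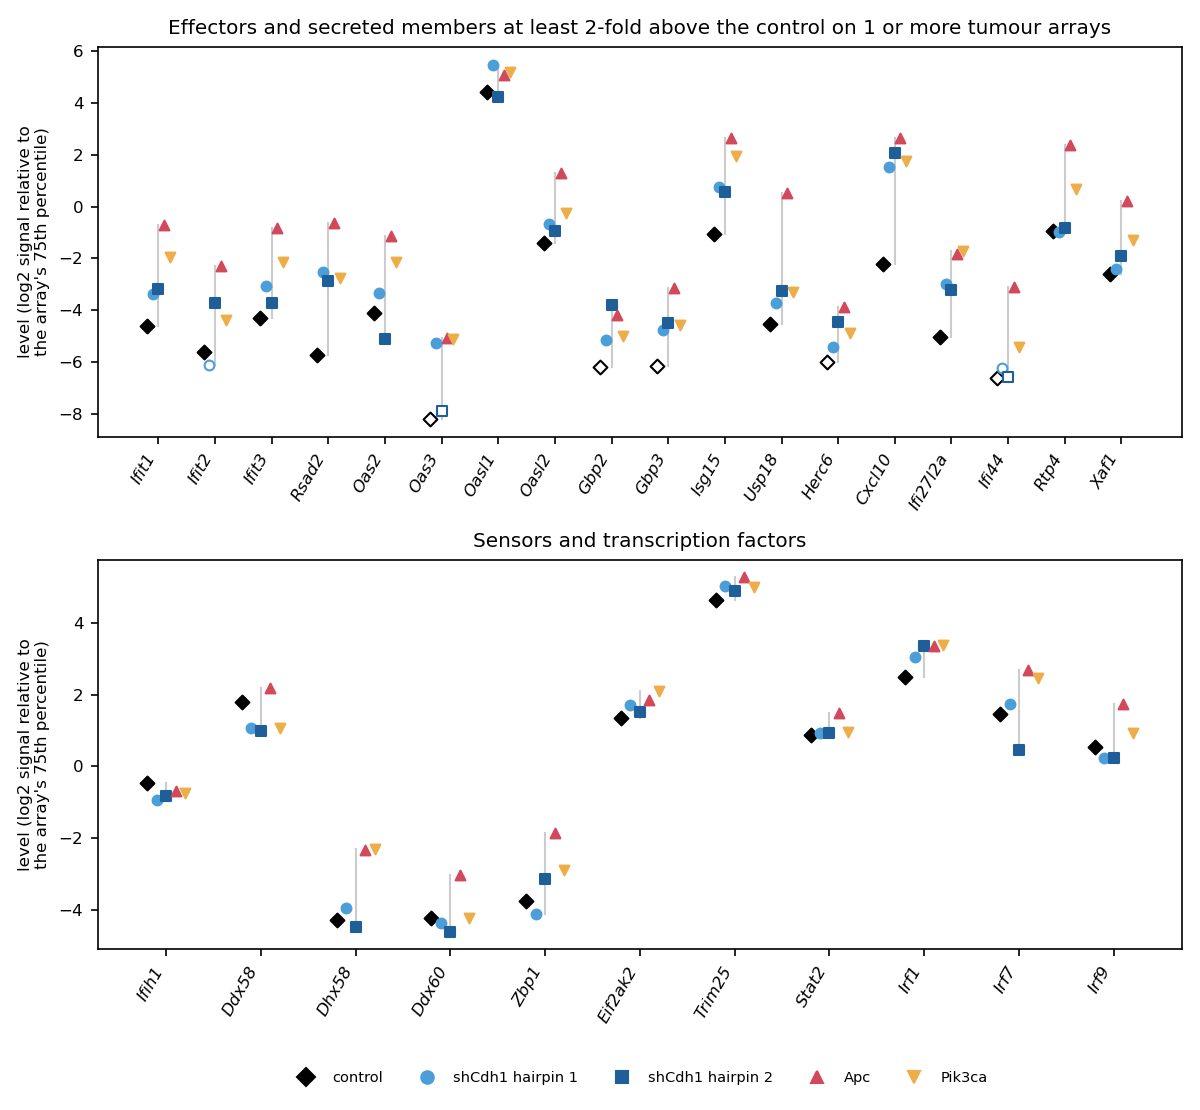
Level (log2 signal relative to the 75th percentile of the array, vertical axis) on each of the 5 arrays for effector and secreted members at least 2-fold above the control on 1 or more tumour arrays (top) and for sensors and transcription factors (bottom). Open symbols are not well above background, grey lines span the range, and levels compare arrays within a gene only; the Apc symbol of Usp18 lies at 0.53 and the other 4 between -4.51 and -3.24.

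Apc and Pik3ca lay on 1 slide, and their comparison shares no control. 32 of 37 members (86.5%) were higher with Apc, against 46.0% of all genes. The median over the members was 0.83, against -0.04 over all genes, and 14 (37.8%) were at least 2-fold higher, against 8.45%. None was at least 2-fold lower, against 5.61%. None passed limma's test (0% of all genes did), and 11 members had an unadjusted p below 0.05, all higher with Apc, against 6.16% of all genes. Usp18 had the widest gap, 14.0-fold (3.81 ± 0.42, SE; limma adjusted p = 0.416). Ifi44 followed with a log2 difference of 2.29, Rsad2 with 2.15, Ifit2 with 2.09 and Rtp4 with 1.70. Dhx58, Ifi27l2a, Irf1, Oasl1 and Eif2ak2 were the 5 members higher with Pik3ca, by 1.18-fold at most, and of these Irf1 and Oasl1 reversed with quantile normalization. Ddx58 and Cmpk2, which with Pik3ca were below the control, were 2.17-fold and 2.92-fold higher with Apc than with Pik3ca. Each genotype here is 1 array, and the Pik3ca array also differed in its sex-linked genes, whose part in the result was not tested.

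Against the mean of the hairpins, Apc was higher for all 37 members tested, against 43.4% of all genes. The median difference was 1.48, against -0.07 over all genes. 23 members (62.2%) were at least 2-fold higher, against 8.14% of all genes, and 0 were at least 2-fold lower, against 3.41%. None passed limma's test (0% of all genes), and 18 had an unadjusted p below 0.05, all higher with Apc, against 5.9% of all genes. Usp18 was 16.1-fold higher (4.01 ± 0.36, SE; limma adjusted p = 0.308), Rtp4 9.69-fold and Oas2 8.45-fold. Ifi44 was at least 6.92-fold higher. The smallest gaps were those of Irf1, Ifih1, Oasl1, Eif2ak2 and Gbp2, at 1.11-fold to 1.20-fold. This comparison crosses slides.

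Markers of other cell types were read on the same arrays, and their sums also rest mostly on the brightest probes of each list. The summed linear signal of the 5 fibroblast markers tested of 8 listed was 0.0737 in the control and 0.0810 to 0.257 in the tumours, highest with Apc. All 5 were detected with Apc and 2 in the control. Dcn, which encodes decorin, was detected only with Apc, at least 7.04-fold above the control, while Col3a1, Lum and Pdgfrb were not well above background on any array. The 7 leukocyte markers tested of 10 listed summed to 11.8 in the control and 16.1 to 21.0 in the tumours, with Apc at 17.2. Adgre1, Lyz2 and Tyrobp, which mark macrophages and other myeloid cells, were not well above background anywhere. Other markers of the list, namely Cd68, Itgam, Csf1r, Cd3e and Fcer1g, were well above background on all 5 arrays. Cd68, also a myeloid marker, lay at 2.51 in the control, 3.03 and 3.84 with shCdh1, 3.28 with Apc and 3.81 with Pik3ca. Itgam too was above the control on all 4 tumour arrays, Cd3e on 2, and Csf1r and Fcer1g on 1 each. Ptprc, the pan-leukocyte gene, lay at -4.86, -4.75 and -4.63 with shCdh1 #1, shCdh1 #2 and Apc and was not well above background in the control or with Pik3ca. The 5 endothelial markers tested of 6 listed summed to 0.234 in the control and 0.0865 to 0.154 in the tumours. Emcn was detected only in the control, Cdh5 and Tek only with shCdh1 #1, Kdr with shCdh1 #2, Apc and Pik3ca, and Pecam1 on all 5 arrays. The part of these cell types in the member differences was not tested.

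Other interferon-induced and pathway genes were read from a list of 75, of which 64 were tested. None passed limma's test in any comparison. Their median difference from the control was 0.25 for the tumours, 0.16 for shCdh1, 0.37 for Apc and 0.26 for Pik3ca, and 11, 7, 17 and 14 of the 64 were at least 2-fold higher. These were 17.2%, 10.9%, 26.6% and 21.9% of the list, against 9.88%, 8.95%, 11.3% and 12.1% of all genes. At an unadjusted p below 0.05 there were 5, 5, 7 and 8, of which 3, 4, 7 and 6 were higher. These were 7.81%, 7.81%, 10.9% and 12.5% of the list, against 13.3%, 9.74%, 9.02% and 11.5% of all genes. The list pools unlike parts. Its 24 other interferon-induced genes had medians of 0.38, 0.17, 0.93 and 0.25 in the same order, and 37.5%, 20.8%, 50% and 29.2% were at least 2-fold higher. Its 12 upstream sensing and adaptor genes had medians of -0.14, -0.08, -0.24 and -0.16. The remaining parts had Apc medians between 0.19 and 0.42. The counts use 1 probe per gene, and some genes differ between probes. Sp110 had a tumour difference of 0.03 on the probe used. Another probe, above background on all 5 arrays, gave 3.28 for the tumours, 2.00 for shCdh1, 4.90 for Apc and 4.24 for Pik3ca. A further probe gave 0.55, -1.07, 1.77 and 2.57. Probes of Adar and Helz2, among others, differed in sign for the tumours. Ifitm1, a membrane protein that blocks virus entry, lay at -1.07 in the control, -0.92 and 3.74 with shCdh1, 4.30 with Apc and 5.22 with Pik3ca. The hairpins were far apart, with shCdh1 #1 at the control and shCdh1 #2 27.9-fold above it. Ccl5, a chemokine of T cells, lay at -3.87 in the control, -1.97 and -1.23 with shCdh1, 1.18 with Apc and 0.51 with Pik3ca. Like Cxcl10 it was above the control on all 4 tumour arrays, by 3.75-fold to 33.2-fold.

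The immunity-related GTPases, which are induced by interferon gamma and act on vacuoles around microbes, did not share 1 pattern. Ifi47 lay at -3.55 in the control, -0.72 and -1.14 with shCdh1, 0.01 with Apc and -1.01 with Pik3ca, and its mean difference was 2.84 ± 0.49 (SE; limma adjusted p = 0.210). All tumours were at least 5.33-fold above the control. Igtp lay at -2.83 in the control, -4.41 and -2.18 with shCdh1, -0.63 with Apc and -3.25 with Pik3ca, and Irgm2 at -2.13, -3.02, -1.58, -0.06 and -2.53 in the same order. In both, Apc was highest and shCdh1 #1 lowest. Iigp1 was detected only with Apc (-4.62), at least 2.73-fold above the control. Gbp7 was at least 2.92-fold and Sp100 at least 2.97-fold above the control with Apc. Ifi27 lay at -0.28 in the control, 0.80 and 0.11 with shCdh1, 2.78 with Apc and 2.08 with Pik3ca. All 4 tumours were above the control. Phf11d lay at -3.39, -1.44, -4.14, -0.32 and -1.57 in that order, with the hairpins on either side of the control. Epsti1 was highest with Pik3ca, 4.04-fold above the control. Socs1, the feedback inhibitor of the Jak kinases, lay at -3.62 in the control, -3.38 and -2.81 with shCdh1, -2.25 with Apc and -2.55 with Pik3ca, with the control lowest.

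**Figure D4:**
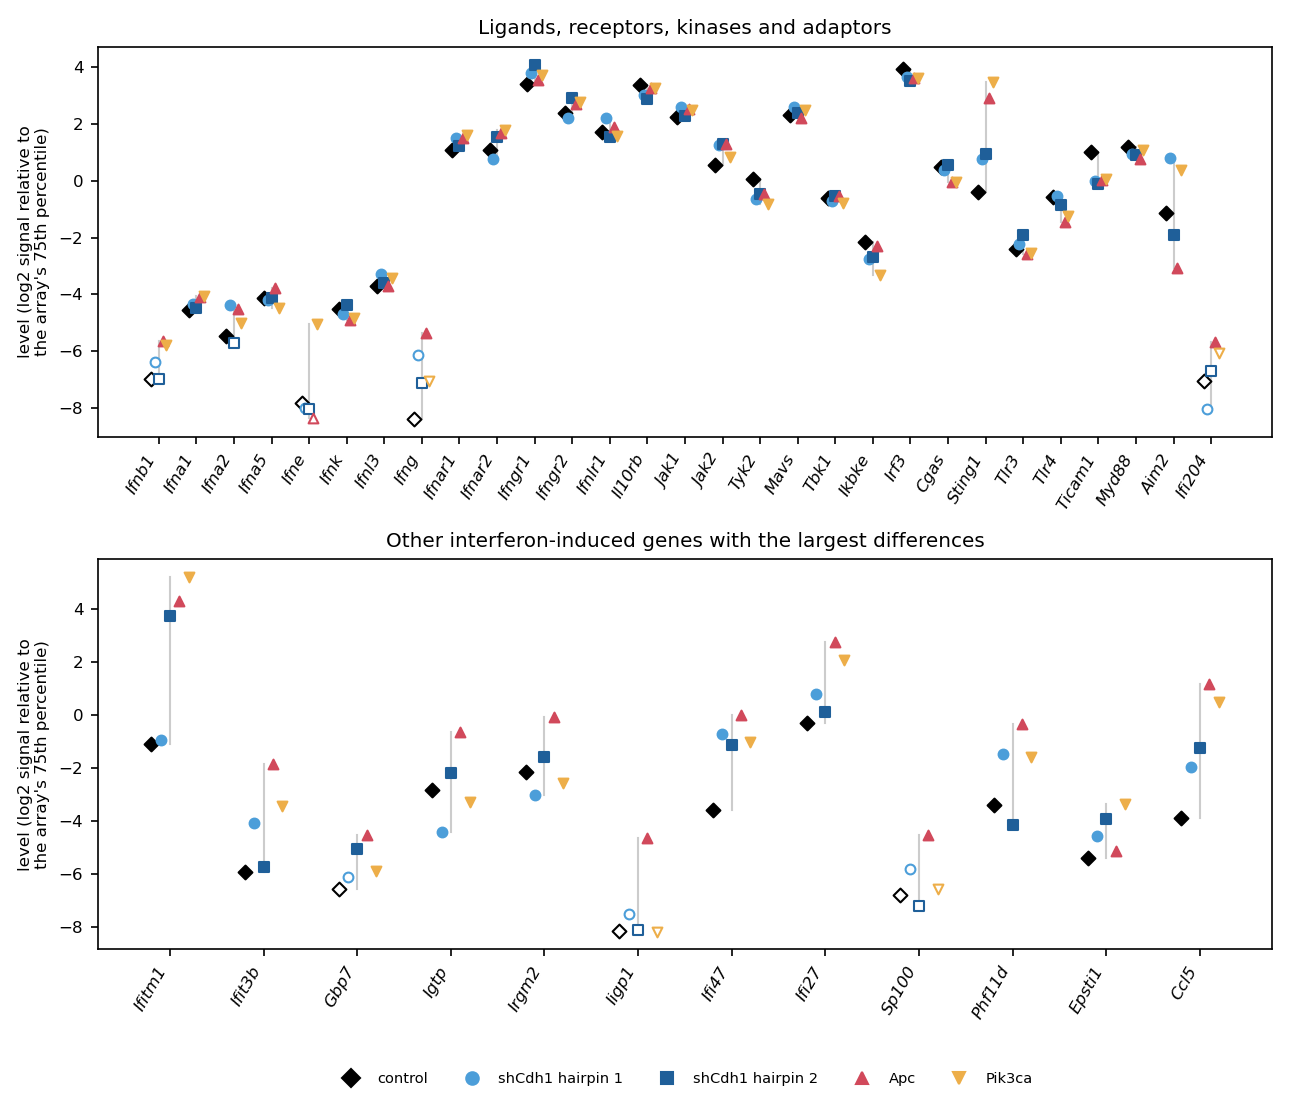
Level (log2 signal relative to the 75th percentile of the array, vertical axis) on each of the 5 arrays for ligands, receptors, kinases and adaptors (top) and for other interferon-induced genes with the largest differences (bottom). Open symbols are not well above background and levels compare arrays within a gene only; the receptor and kinase symbols stay within 2-fold of the control, while Sting1 runs from -0.41 in the control to 3.46 with Pik3ca.

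The members were finally read by the promoter windows printed in part above. The 15 members with the response element core had median differences from the control of 1.04 and 0.55 with shCdh1 #1 and #2, 1.97 with Apc and 1.16 with Pik3ca. The 14 members with a window and no match had 0.25, 0.15, 1.03 and 0.82. The members without a match included Ifit2, Ifi44, Xaf1 and Oasl2, which were among those with large Apc differences. On the probes used, Ifih1, Ddx58, Stat2 and Bst2, with a match, stayed within 2-fold of the control on every array. The other Stat2 probe put Apc more than 2-fold above the control, and another Ddx58 probe put Pik3ca more than 2-fold below it. Of the 7 members at least 2-fold above the control on all 4 tumour arrays, the 6 with a window all held a match. These 6 include Gbp2 and Gbp3, whose control signal was at background. The split was made after the member values were known, no test was run on it, and Usp18, Rtp4, Oas2, Ifi27l2a, Dhx58, Zbp1, Parp9 and Parp14 had no window.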

How the data were processed

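RNA from 5 samples was labelled with Cy3 and hybridised to one-colour arrays, per the labels' protocols. Images were read with Agilent Feature Extraction 11.0.1.1, per the submitters' processing notes. Per the file headers, its processed signal is an intensity from which background was already removed, and median spot and background intensities stand beside it. The value table deposited by the authors holds log2 values. Over 53335 probes its differences from the control matched the scanner values with a slope and correlation of 1. What was subtracted from each probe is not known.

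Levels are log2 processed signal minus that array's 75th percentile. Control spots and outlier spots (78 to 114 per array) were left out, and no spot was saturated. Probes were named through RefSeq accessions (34549 of 56605 probes matched 1 symbol). The probe with the highest mean signal stood for a gene, and the 16 members with several probes were checked for disagreement. In 1 or more comparisons with the control the sign differed between probes of Ddx58, Ddx60, Ifi35, Stat2 and Trim25, and 0 members had probes at least 2-fold apart from the control in opposite directions. A gene was tested if a probe was well above background on any array, which left 17583 genes. A gene dim in a whole group has a bound, written "at least". It sets the brighter group's mean against the dim arrays, each taken at its lowest detected signal or, if brighter, at the signal of the gene itself.

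Tests were two-sided, with lmFit and eBayes of limma 3.58.1 under R 4.3.3 and Benjamini-Hochberg adjustment over all genes at a threshold of 0.05, and were checked on simulated data. The tumour fit had 3 residual degrees of freedom, with the lone control assumed to vary like the tumours. Its spread includes the differences between tumour genotypes and between slides. The genotype fit had 1 mean per group and 1 residual degree of freedom, with single arrays assumed to vary like the hairpin pair. Members named with every value are the sensors, the transcription factors and those at least 2-fold from the control on 1 or more tumour arrays. Pathway genes outside the members were named by the 15 largest such differences, and others named were chosen after their values were seen. Alternatives were normexp on median signals, quantile normalization, 2 other filters on dim genes, dim signals at a floor, the mean of all probes, the deposited values, eBayes with a trend, slide as a block, and leaving out each tumour array. 1 gene of the pathway list is not reported here. The members and lists were chosen with earlier results of these data known. The number of arrays limits the precision.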

Additional observations from a re-analysis of the deposited data

Results flagged for a closer look

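In 5 members both hairpin arrays lay below the control and another tumour genotype above it, at least 2-fold away from the hairpin mean. Oas1a was -0.59 and -1.20 from the control with shCdh1 #1 and #2 and 0.75 with Apc, a gap of 1.65 from the hairpin mean (limma adjusted p = 0.742 for Apc against shCdh1). With Pik3ca it was 0.40 above the control, a gap of 1.29, and that difference was not tested. Irf9 was -0.31 and -0.33 with the hairpins and 1.19 with Apc, a gap of 1.51 (adjusted p = 0.548). Ddx58 was -0.70 and -0.80 against 0.41, a gap of 1.16 (adjusted p = 0.718). Ddx60 was -0.12 and -0.37 against 1.22, a gap of 1.46 (adjusted p = 0.632). Cmpk2 was -1.42 and -0.80 against 0.75, a gap of 1.87 (adjusted p = 0.676). The hairpins and Apc lay on different slides, and each comparison with the control shares the same array.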

How the results depend on the processing

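The median over the members kept its sign in every comparison under every alternative that was run. For the tumours against the control it was 0.49 with normexp, 0.50 over members well above background on all 5 arrays, 0.29 with slide as a block, and 0.54 to 1.11 when 1 tumour array was left out (0.54 without Apc, 1.11 without shCdh1 #1). Members at least 2-fold higher numbered 10 with normexp, 10 with slide as a block and 11 to 19 when an array was left out, and 1 member, Cxcl10, passed with normexp. For shCdh1 the median was 0.20 over members detected on all arrays and 0.33 to 0.45 from single hairpins, with 3 members at least 2-fold higher with normexp and 6 over members detected on all arrays. For Apc the median was 0.81 with normexp, 1.65 with quantile normalization, 1.19 over members detected on all arrays, 1.23 with dim signals at the floor and 1.45 with all probes averaged. For Pik3ca the same 5 gave 0.44, 0.91, 0.76, 0.89 and 1.11, with 11 members at least 2-fold higher with normexp. Apc against Pik3ca gave 0.67 with normexp and 0.75 over members detected on all arrays, and Apc against shCdh1 gave 0.96 with normexp and 1.35 to 1.39 from single hairpins. Some small differences reversed. In the tumours against the control, Ddx60 was -0.090 with all probes averaged. With slide as a block Ddx60 was -0.25, Irf9 -0.32, Igtp -0.46, Irgm2 -0.17, Ifne -0.19, Oas2 -0.13 and Irf7 -0.36. Leaving out 1 tumour array gave Ddx60 at -0.16 to 0.36, Irf9 at -0.092 to 0.42, Igtp at -0.45 to 0.81 and Irgm2 at -0.25 to 0.74, each lowest without Apc. It gave Ifne at -0.30 to 0.80, lowest without Pik3ca, and Oas1a at -0.46 to 0.19, highest without shCdh1 #2. In Apc against Pik3ca, Oas3 was -0.061 with normexp and -0.042 with quantile normalization, which also gave Oasl1 at 0.20 and Irf1 at 0.16. The cause of these shifts was not tested, except that slide as a block leaves the comparison within the first slide, and that the stricter filter keeps 31 members. Slide could not be fitted beside genotype, since each genotype lay on 1 slide. No paired analysis was possible because the labels number only the shCdh1 samples. Leaving out a hairpin leaves the genotype fit without residual degrees of freedom, so those are values without a test. Dim signals limit Oas3, Ifi44, Herc6, Gbp2, Gbp3, Ifnb1, Ifng and Ifne.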
